A study of Mus musculus with 8 samples.

Results

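The genes described here encode the synaptic vesicle release machinery, the proteins that hold transmitter vesicles at the nerve terminal and fuse them with the membrane. They are a list of 35 named mouse genes, of 21631 protein-coding genes with a span on chromosomes 1 to 19 and X. The list follows what is known of the pathway; it was drawn up with earlier results of these data known, and its rule uses no measured value. Each gene was measured through H3K27ac, the acetyl mark on histone H3 that active promoters and enhancers carry. Its coverage in a library is the number of bases lying in called peaks within the gene's span and 20 kb to each side, divided by the Mb called in that library (bp per Mb called). A filter on low values asked for a mean of at least 10 bp per Mb called over the 8 libraries. It was passed by 33 of the 35 genes and 15537 genes in all, and Doc2b and Syt2 did not pass it.

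The data were 8 peak lists from chromatin immunoprecipitation and sequencing of primary neurons cultured from C57/BL6 mouse embryos, with 2 libraries in each of 4 groups. The groups were MGE KCl, MGE unstimulated, CTX KCl and CTX unstimulated. All of them, the unstimulated ones too, had been silenced overnight from day 6 in vitro with 1 µM TTX, which blocks sodium channels, and 100 µM D-AP5, which blocks NMDA receptors. On day 7 the KCl cultures received 55 mM KCl for 2 h, which depolarises neurons, and the others nothing. MGE usually stands for the medial ganglionic eminence, the birthplace of many GABAergic interneurons, and CTX for the cortex, but the labels do not spell either out. The titles of CTX libraries give embryonic day 14, the source field gives day 16 for every library, and under cell type the MGE libraries are also entered as cortical neurons. Grouping here follows the titles. The labels call the 2 libraries of a group biological replicates without saying what was kept separate, so a p-value reflects only how much these libraries vary, and that variation may be technical.

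Transmitter release runs through a chain of proteins. Synapsins tether vesicles in a reserve, Rab3 proteins and the scaffolds of the active zone (RIM, ELKS, Bassoon and Piccolo) bring them to the release site, and Munc13 proteins prime them for fusion. The SNARE proteins syntaxin, SNAP-25 and synaptobrevin then drive fusion under the control of complexins, and synaptotagmins sense the calcium that triggers it. Related genes of these families serve different neurons and synapses, so the family members used by a neuron are part of its identity.

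The lists covered 21.5 and 32.0 Mb in MGE KCl libraries, 23.0 and 21.1 Mb in MGE unstimulated libraries, 28.4 and 44.7 Mb in CTX KCl libraries and, unstimulated, 23.5 and 42.9 Mb in CTX libraries. Read depth is unknown, and a base missing from a list may lie just under the caller's threshold. Marker genes differed between the cultures. The 12 GABAergic or MGE markers summed to 1271 to 1685 bp per Mb called in MGE libraries and 786 to 890.4 in CTX libraries, with 6 of 12 tested higher in MGE cultures, none lower, and Nkx2-1 at 0 in every CTX library. The 9 cortical glutamatergic markers summed to 65.4 to 201 bp per Mb called in MGE libraries and 409 to 729.8 in CTX libraries, with 7 of 8 tested lower in MGE cultures and Slc17a6, Neurod6 and Emx1 at 0 in every MGE library. The cultures also differed at glial and progenitor markers. The oligodendrocyte list summed to 120.0 to 220.3 bp per Mb called in MGE libraries and 482 to 669 in CTX libraries (5 of 6 tested lower, Cspg4 at 0 in MGE). The astrocyte list summed to 215 to 467 in MGE libraries and 504 to 635 in CTX libraries (3 of 7 lower, Aqp4 at 0 in MGE), and the neural progenitor list to 213 to 373 in MGE libraries and 409 to 537 in CTX libraries (3 of 5 lower). The microglial list summed to 138 to 214 in MGE libraries and 68.4 to 112 in CTX libraries (Csf1r higher, of 3 tested, and Cx3cr1 at 0 in all 8), and the endothelial list to 43.5 to 140.4 in MGE libraries and 106 to 241 in CTX libraries (Pecam1 lower, of 2 tested, and Cldn5, Kdr and Tek at 0 in all 8). The 5 general neuronal markers summed to 1227 to 1584 in MGE libraries and 1087 to 1390.1 in CTX libraries, with Rbfox3 and Elavl4 higher in MGE cultures. With KCl, Slc1a2 of the astrocyte list and Vim of the progenitor list were higher in MGE cultures, and Flt1 of the endothelial list and Rbfox3 were lower in CTX cultures. The part of cell make-up in the differences given below was not tested. Fewer cells of a type and less acetylation per cell cannot be told apart in these bulk cultures.

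Promoter sequences of 7 of the genes are printed here, each for a reason given below. RefSeq gives a promoter, 250 bases before and 50 after the start on GRCm38.p6 (the coordinates of mm10), for 26 of the 35 genes; Syn3, Snap25, Vamp2, Rims2, Rims4, Doc2a, Doc2b, Syt5 and Syt7 have no entry in the table. Rab3c (chr13:110280157-110280456), Rims1 (chr1:22806109-22806408) and Erc1 (chr6:119848101-119848400), all on the minus strand, had the 3 starts most filled by peaks; none of these start windows was called in a comparison. Sv2b (chr7:75308337-75308636, minus strand, the second of its 4 listed starts) and Syt9 (chr7:107370540-107370839, plus strand) had start windows with called bases in every CTX library and in at most 1 MGE library. Sv2c (chr13:96132528-96132827, minus strand) is followed, just downstream of the printed bases, by peaks called with KCl. Syn1 (chrX:20920869-20921168, minus strand) was added after its sequence was seen, as the only one with a cAMP response element. Sequences run 5′ to 3′ in the direction of transcription, and capitals mark the motifs found by a search of both strands: the GC box GGGCGG, the TATA motif TATAAA, both also as the complement, and the cAMP response element TGACGTCA.
Rab3c: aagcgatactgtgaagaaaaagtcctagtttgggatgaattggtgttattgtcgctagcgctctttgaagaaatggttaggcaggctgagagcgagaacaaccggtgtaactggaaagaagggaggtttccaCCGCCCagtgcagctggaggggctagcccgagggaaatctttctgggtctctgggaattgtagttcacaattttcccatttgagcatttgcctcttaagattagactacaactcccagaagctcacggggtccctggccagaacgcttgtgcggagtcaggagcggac
Rims1: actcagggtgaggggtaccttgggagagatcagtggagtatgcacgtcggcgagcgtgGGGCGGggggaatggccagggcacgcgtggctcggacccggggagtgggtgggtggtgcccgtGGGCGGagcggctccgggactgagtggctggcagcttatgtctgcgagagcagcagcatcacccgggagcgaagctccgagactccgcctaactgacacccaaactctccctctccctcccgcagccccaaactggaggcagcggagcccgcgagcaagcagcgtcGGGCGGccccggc
Erc1: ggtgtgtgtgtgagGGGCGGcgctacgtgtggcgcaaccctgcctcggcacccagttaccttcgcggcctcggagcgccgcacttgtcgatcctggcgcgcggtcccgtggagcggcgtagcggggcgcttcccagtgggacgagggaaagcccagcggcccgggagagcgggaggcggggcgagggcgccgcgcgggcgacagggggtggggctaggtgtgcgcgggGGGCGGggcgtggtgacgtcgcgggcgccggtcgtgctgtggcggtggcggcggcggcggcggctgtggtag
Sv2b: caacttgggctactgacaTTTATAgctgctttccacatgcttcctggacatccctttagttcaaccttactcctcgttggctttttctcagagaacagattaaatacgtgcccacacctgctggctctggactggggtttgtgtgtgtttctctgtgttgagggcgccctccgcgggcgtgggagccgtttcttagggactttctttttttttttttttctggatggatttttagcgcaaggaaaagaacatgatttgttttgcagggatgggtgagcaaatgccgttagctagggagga
Syt9: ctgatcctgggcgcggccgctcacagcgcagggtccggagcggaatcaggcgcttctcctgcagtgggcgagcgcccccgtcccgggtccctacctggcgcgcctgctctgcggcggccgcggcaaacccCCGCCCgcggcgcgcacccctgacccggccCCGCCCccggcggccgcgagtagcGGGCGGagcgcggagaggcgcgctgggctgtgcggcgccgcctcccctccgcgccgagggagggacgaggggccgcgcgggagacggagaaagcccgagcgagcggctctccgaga
Sv2c: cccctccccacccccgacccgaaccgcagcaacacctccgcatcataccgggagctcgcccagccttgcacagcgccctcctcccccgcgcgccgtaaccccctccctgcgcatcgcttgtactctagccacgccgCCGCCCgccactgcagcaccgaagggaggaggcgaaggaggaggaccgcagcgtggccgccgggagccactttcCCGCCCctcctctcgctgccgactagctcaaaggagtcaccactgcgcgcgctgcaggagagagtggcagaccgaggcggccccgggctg
Syn1: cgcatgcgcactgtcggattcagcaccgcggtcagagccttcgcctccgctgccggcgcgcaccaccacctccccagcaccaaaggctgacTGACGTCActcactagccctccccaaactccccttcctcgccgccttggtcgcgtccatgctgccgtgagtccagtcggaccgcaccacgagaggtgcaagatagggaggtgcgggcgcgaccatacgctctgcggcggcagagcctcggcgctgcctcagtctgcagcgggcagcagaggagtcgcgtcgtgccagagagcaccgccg
A GC box lay in the promoters of 22 of the 26 genes, and in those of 49.8% of 17274 genes in the table (46.7% of all 21045 promoters). The cAMP response element, a site for CREB-family factors that respond to activity, was in Syn1 and in 2.58% of those genes (2.26% of promoters). A TATA motif was in Rab3b and Sv2b, and in 14.9% of genes (12.7% of promoters). The activity-linked AP-1 motif TGANTCA was in Erc2 and Syt2 (8.19% of genes, 7.04% of promoters) and the EGR motif GCGTGGGCG, which can overlap a GC box, in Unc13a (0.967% of genes, 0.836% of promoters). The core of the RE1 element, bound by the repressor REST, was found in none of the 26 genes' promoters and in those of 0.081% of genes (0.0713% of promoters). The median GC content was 62.3% over the genes' 33 promoters and 56.7% over all. A match is a description of letters, not a bound site.

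H3K27ac peaks covered most release genes in both cultures. A peak lay in the window of 28 genes in every library, and in the other 7 in 2 to 7 libraries. The same count was not made over all protein-coding genes, whose windows are shorter at the median, so it does not set these genes apart. Where the start is given, the 2 kb centred on it held called bases in all 8 libraries at 18 of 26 genes (69.2%), against 41.5% of 17274 protein-coding genes. For genes with several listed starts, the one called in most libraries was counted. Only Cplx3 held no called base at any listed start in any library. By bp per Mb called, which grows with window length, Rab3c was highest (mean 436 ± 88.9 bp per Mb called, SD, n = 8 libraries), then Syt1 (344 ± 174) and Erc2 (305 ± 64.2). These are long genes, and per length the order was another. Peaks filled 10.5% of the window of Vamp2, the main synaptobrevin of brain synapses, 8.84% of that of Sv2a, 6.28% of that of Rab3a and 5.82% of that of Stx1a, as means over 8 libraries. The lowest shares were 0.191% at Unc13c, 0.211% at Syt2 and 0.312% at Doc2b. Windows of the 35 genes had a median length of 109 kb, of which 2.14% was called, against 57.3 kb and 1.65% over all protein-coding genes. Much of the coverage at the short genes lay in the spans of neighbours: 90.2% of it at Doc2a, 87.9% at Cplx3, 56.7% at Syn1 (where Timp1 lies inside the gene), 55.2% at Vamp2 and 46.8% at Stx1a.

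**Figure D1:**
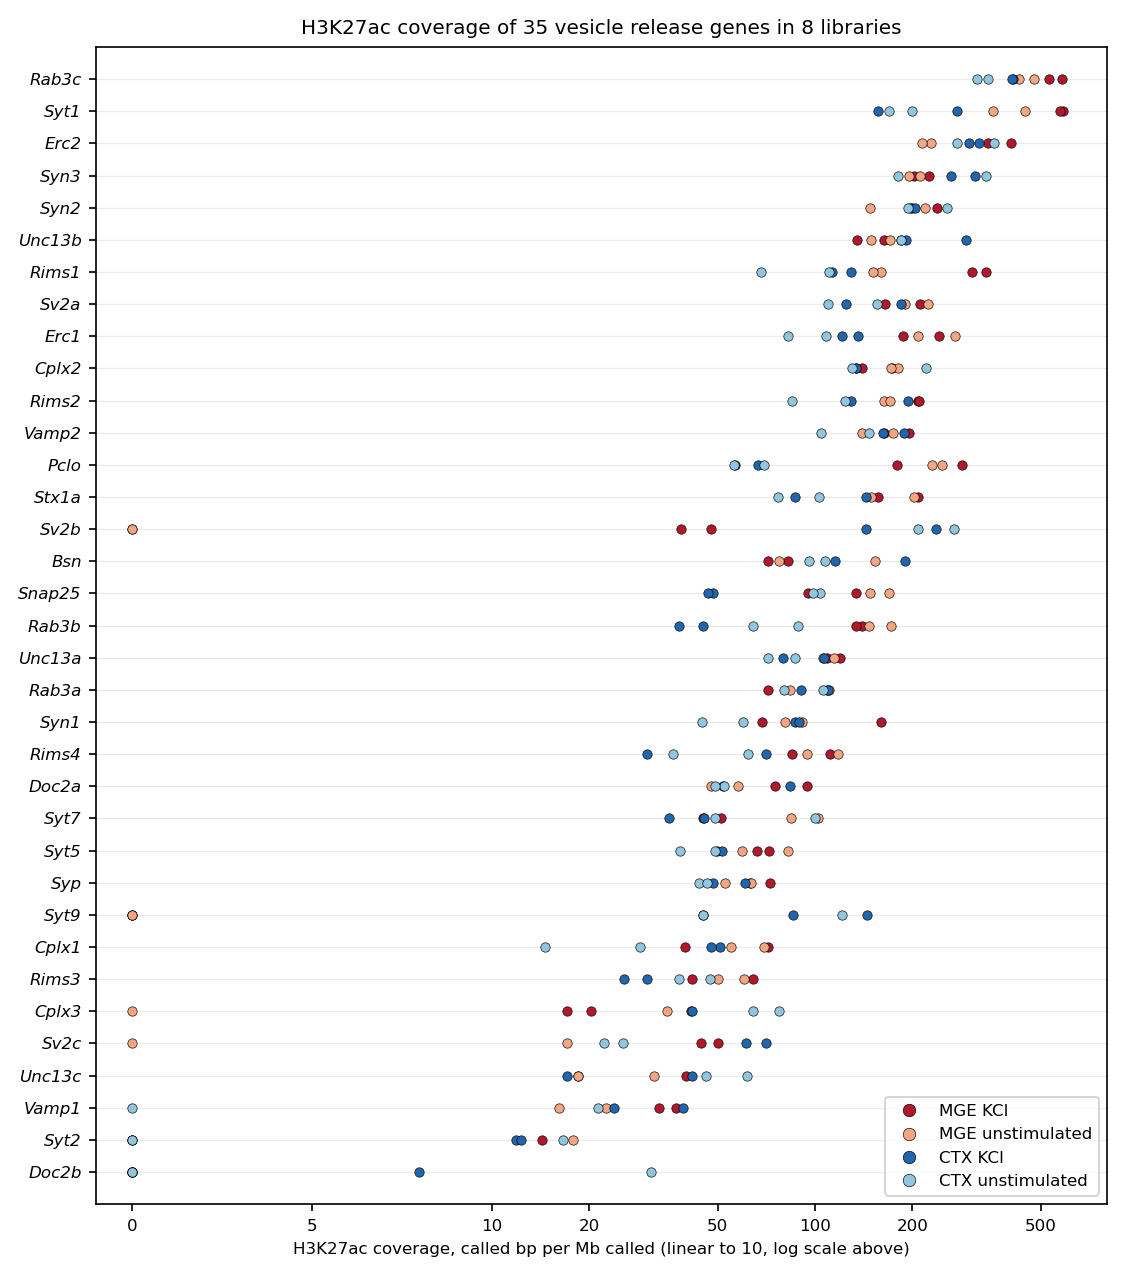
H3K27ac coverage (bp per Mb called, linear to 10 and log above) of the 35 release genes in 8 libraries, genes ordered by their mean, red and orange for MGE KCl and MGE unstimulated, dark and light blue for CTX KCl and CTX unstimulated. Red and orange points lie apart from blue ones at Syt1, Pclo, Erc1 and Rab3b on the high side and at Sv2b on the low side, and Sv2b has 2 MGE unstimulated points at 0.

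Merged over the 8 lists, the windows held 535 separate peak regions, of which 57 (10.7%) were called in all 8 libraries and 215 (40.2%) in only 1. These shares were not counted over all genes, so they are a description of the windows only. The start of Pclo, for example, carried a peak in every library, with a deposited fold enrichment of 4.56 to 5.85, and Syt1 had one just inside its start, with 3.31 to 5.28; both are the authors' own values for a peak.

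MGE and CTX cultures differed at 13 of the 33 tested release genes. Coverage was higher in MGE cultures at 10 of them: Pclo, Syt1, Rab3b, Rims1, Erc1, Rims4, Snap25, Stx1a, Rims2 and Rab3c. It was lower in MGE cultures at Sv2b, Syt9 and Cplx3. The test was limma on log2(bp per Mb called + 10), fitted to all 15537 genes with Benjamini-Hochberg adjustment and a threshold of 0.05. It called 23.7% of all genes, 10.8% higher in MGE cultures and 12.9% lower. The median difference was 0.35 over the 33 genes and 0.12 over all genes tested. The 4 MGE libraries did not overlap the 4 CTX libraries at 9 genes on the high side, where the background was 10.6%, and at 3 on the low side, where it was 10.2%, so 12 of 33 in all against 20.8%. Differences below are MGE minus CTX on that log2 scale, over both treatments.

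Of the 8 genes for RIM, ELKS, Bassoon and Piccolo, the scaffolds of the active zone, 5 were higher in MGE cultures and none lower. Of all genes 10.8% were higher and 12.9% lower. Without division by the Mb called only Pclo of the 5 was still called, and with peaks of -log10 q of at least 5 only Rims1. In start windows Pclo, Rims1 and Erc1 were not called, and Rims2 and Rims4 have no listed start to test. Pclo encodes Piccolo, a giant scaffold that organises the release site. It had 286 and 179.9 bp per Mb called with KCl and 247 and 229.5 unstimulated in MGE cultures, against 66.5 and 56.7 with KCl and 69.4 and 56.4 unstimulated in CTX cultures. The MGE libraries stood far above the CTX libraries at this gene, by 1.75 (SE 0.18, adjusted p = 1.06e-05).

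The start of Pclo gave no call. The 2 kb at the start were filled to 62.7% in MGE libraries and 64.7% in CTX libraries, and the start-window fit gave 0.36 (SE 0.22, adjusted p = 0.378). In all start-window fits the spread came almost wholly from the trend over all genes, and hardly from a gene's own libraries. Inside the gene, 8 peak regions were called in at least 2 MGE libraries and in no CTX library, and none the other way. Regions at chr5:14660125-14661008 and chr5:14722933-14724417 were called in the 4 MGE libraries but not in CTX. MGE libraries held 12 and 10 peaks with KCl and 8 and 7 unstimulated, against 2 and 4 with KCl and 2 and 3 unstimulated in CTX libraries.

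Rims1 encodes RIM1, which links Rab3 on the vesicle to calcium channels and Munc13. It had 339 and 306 bp per Mb called with KCl and 160.2 and 151 unstimulated in MGE cultures, against 129 and 113 with KCl and 110.3 and 68.3 unstimulated in CTX cultures. Its difference was 1.06 (SE 0.17, adjusted p = 0.000388), and the groups did not overlap. Rims2, its close relative, had 208 and 209.7 bp per Mb called with KCl and 163 and 171 unstimulated in MGE cultures, against 193 and 129 with KCl and 123 and 84.9 unstimulated in CTX cultures, a difference of 0.52 (SE 0.17, adjusted p = 0.0438) with overlapping groups. Rims4, a short RIM with few of the domains of RIM1, had 111 and 85.2 bp per Mb called with KCl and 118 and 94.3 unstimulated in MGE cultures, against 30.2 and 70.5 with KCl and 36.4 and 61.9 unstimulated in CTX cultures. The Rims4 difference was 0.96 (SE 0.24, adjusted p = 0.00918). Rims3 did not pass, at 0.51 (SE 0.22, adjusted p = 0.112).

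Erc1 and Erc2 encode the ELKS scaffolds. Erc1 had 242 and 187 bp per Mb called with KCl and 209 and 271 unstimulated in MGE cultures, against 136 and 121 with KCl and 82.4 and 108 unstimulated in CTX cultures. All MGE values lay above all CTX values, with a difference of 0.97 (SE 0.17, adjusted p = 0.000635). Erc2 did not pass, at -0.11 (SE 0.14, adjusted p = 0.582). Of 61 peak regions at Erc2, 11 were called in at least 2 MGE libraries and no CTX library, and 14 in at least 2 CTX libraries and no MGE library. Stretches at chr14:27937139-27937692 and chr14:27938407-27939066 were called in the 4 MGE libraries but not in CTX, and 5 others, among them chr14:28410239-28410812, in the 4 CTX libraries but not in MGE. Bsn, for the scaffold Bassoon, had -0.38 (SE 0.22, adjusted p = 0.232) and did not pass. None of the 3 Munc13 genes passed: Unc13a had 0.35 (SE 0.17, adjusted p = 0.165), Unc13b -0.42 (SE 0.17, adjusted p = 0.085) with groups that did not overlap, and Unc13c -0.44 (SE 0.29, adjusted p = 0.3).

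**Figure D2:**
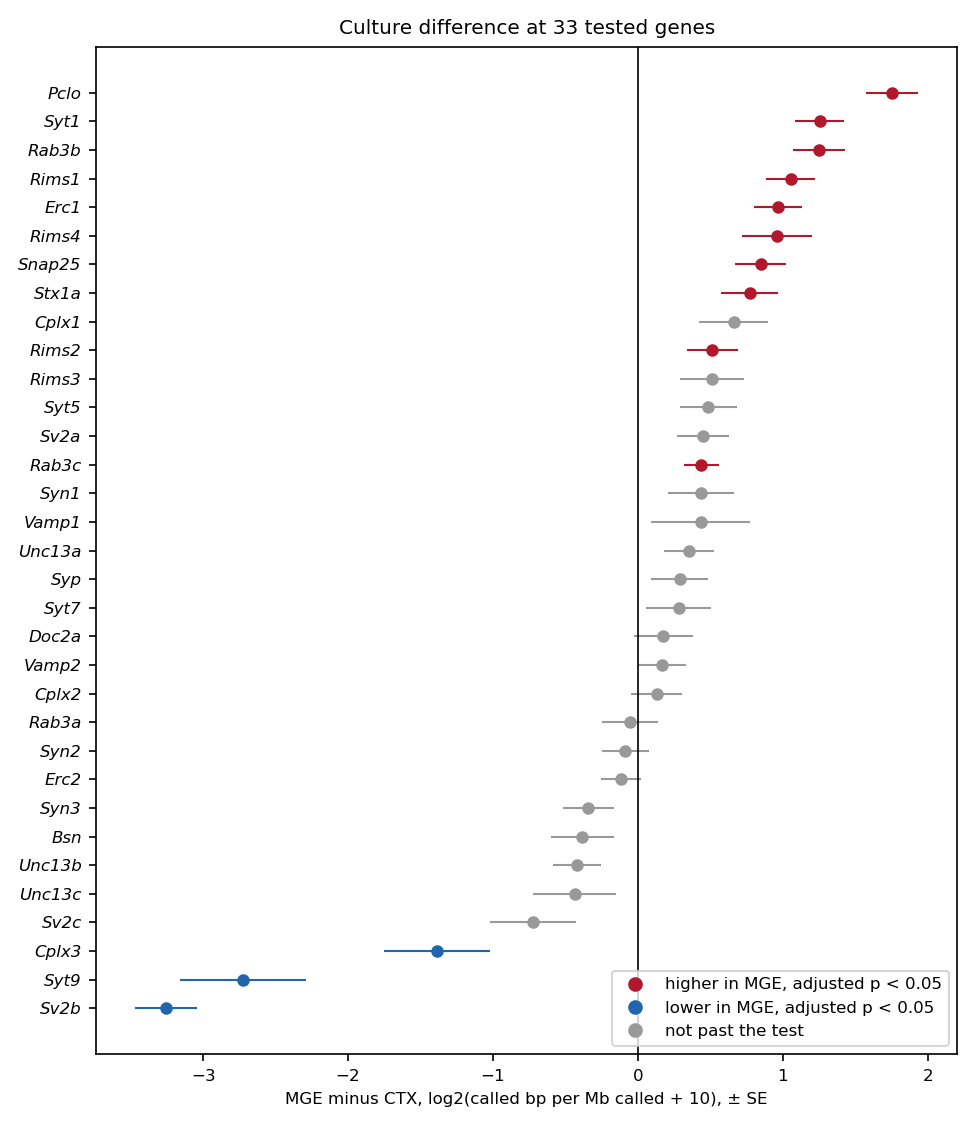
Difference of H3K27ac coverage between MGE and CTX cultures at the 33 tested genes (x axis, MGE minus CTX on log2(bp per Mb called + 10), with bars of 1 SE), red and blue where the adjusted p was under 0.05. Pclo (1.75) lies farthest to the high side, and Sv2b (-3.26) and Syt9 (-2.73) farthest to the low side.

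Of the SNARE genes, Snap25 and Stx1a were higher in MGE cultures, and Vamp1 and Vamp2 did not pass. Snap25, for the membrane SNARE SNAP-25, had 134 and 95.0 bp per Mb called with KCl and 169.7 and 148 unstimulated in MGE cultures, against 48.3 and 46.5 with KCl and 104 and 98.9 unstimulated in CTX cultures. Its difference was 0.85 (SE 0.18, adjusted p = 0.00242). The lowest MGE library, MGE KCl 2, lay below the highest CTX library, CTX unstimulated 1. A region at chr2:136759348-136760206 inside Snap25 was called in the 4 MGE libraries but not in CTX, and one at chr2:136787659-136788395 past its end in the 4 CTX libraries but not in MGE. Within the region inside the gene, chr2:136759733-136760161 was called in both MGE KCl libraries and in neither MGE unstimulated library.

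Stx1a, for the membrane SNARE syntaxin-1A, had 208 and 157 bp per Mb called with KCl and 203 and 149 unstimulated in MGE cultures, against 143 and 86.8 with KCl and 76.8 and 103 unstimulated in CTX cultures. Its difference was 0.77 (SE 0.20, adjusted p = 0.00932), with no overlap. At the start itself it was -0.15 (SE 0.27, adjusted p = 0.744), and 46.8% of the called length lay in the spans of Abhd11, Bud23 and Dnajc30; with all bases in other genes left out, the difference was 1.12 (adjusted p = 0.00285). The synaptobrevin genes gave 0.43 (SE 0.34, adjusted p = 0.386) at Vamp1 and 0.17 (SE 0.17, adjusted p = 0.493) at Vamp2.

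Complexins bind the assembled SNAREs. Cplx3, a form known mainly from retina and from some cortical neurons, had 20.3 and 17.1 bp per Mb called with KCl and 34.9 and 0 unstimulated in MGE cultures, against 41.5 and 41.7 with KCl and 77.1 and 64.1 unstimulated in CTX cultures. Its difference was -1.39 (SE 0.36, adjusted p = 0.0117), and the groups did not overlap. Of its called length, 87.9% lay in the spans of Scamp2, Ulk3 and Lman1l, and with those bases left out the gene fell under the filter. Cplx1 and Cplx2, the main complexins of brain synapses, had 0.66 (SE 0.24, adjusted p = 0.0608) and 0.13 (SE 0.18, adjusted p = 0.625) and did not pass. In the 2 kb at its start Cplx1 was called higher in MGE cultures, by 0.81 (SE 0.22, adjusted p = 0.00865). MGE libraries held 1534 and 1274 called bp there with KCl and 1239 and 1160 unstimulated. CTX libraries held 1119 and 1220 with KCl and 344 and 1239 unstimulated, so before division by the Mb called the cultures overlapped. The SE hardly reflects this gene's own libraries. Start windows of 2.01% of 8700 genes tested there were called higher and 3.17% lower.

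Of the synaptotagmins, which sense calcium, Syt1 was higher in MGE cultures and Syt9 lower. Syt1, for the fast sensor of most forebrain synapses, had 583 and 571 bp per Mb called with KCl and 445 and 356 unstimulated in MGE cultures, against 156 and 275 with KCl and 169 and 199 unstimulated in CTX cultures. Each MGE library lay above each CTX library, and the difference was 1.25 (SE 0.17, adjusted p = 9.21e-05). Syt9, for a fast sensor used by fewer neurons, had 0 and 45.1 bp per Mb called with KCl and 0 and 0 unstimulated in MGE cultures, against 85.2 and 145 with KCl and 45.1 and 121 unstimulated in CTX cultures. Its difference was -2.73 (SE 0.43, adjusted p = 0.00036); the highest MGE library, MGE KCl 2, reached the lowest CTX library, and 3 of 4 MGE libraries were listed at 0.

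At Syt1, 18 peak regions were called in at least 2 MGE libraries and in no CTX library, against 6 the other way, among 66 in all. Stretches at chr10:108631330-108632039 and chr10:108632888-108633357 inside the gene were called in the 4 MGE libraries but not in CTX. At Syt9 the start itself differed. Its 2 kb were filled to 3.86% in MGE libraries and 54.7% in CTX libraries, a start-window difference of -1.71 (SE 0.37, adjusted p = 0.000276). Syt5, whose protein sits on dense-core vesicles, and Syt7, a slow sensor, did not pass, at 0.49 (SE 0.20, adjusted p = 0.0935) and 0.28 (SE 0.23, adjusted p = 0.394). Doc2a, for a calcium sensor of spontaneous and asynchronous release, had 0.18 (SE 0.20, adjusted p = 0.564). Of the 2 genes under the filter, Doc2b was at 0 in all 4 MGE libraries and in CTX KCl 1 and CTX unstimulated 1, and in the second CTX libraries it had 7.98 bp per Mb called with KCl and 31.1 unstimulated, and Syt2 lay between 0 and 17.8 in MGE libraries and between 0 and 16.7 in CTX libraries.

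The SV2 family encodes vesicle glycoproteins needed for normal release, and of its 3 genes Sv2b was lower in MGE cultures. Sv2b had 47.7 and 38.5 bp per Mb called with KCl and 0 and 0 unstimulated in MGE cultures, against 144 and 237 with KCl and 208 and 269.7 unstimulated in CTX cultures. It had the largest difference of the 33 genes, -3.26 (SE 0.21, adjusted p = 3.85e-07), and MGE unstimulated libraries held no peak anywhere in its window. Its first start window held no called base in any MGE library. CTX libraries held 470 and 1158 bp there with KCl and 415 and 1127 bp unstimulated. The start-window fit, which summed the windows of its 4 listed starts, gave -2.35 (SE 0.35, adjusted p = 5.14e-09). Of 31 peak regions, 1 was called in 2 MGE libraries and no CTX library, and 15 in at least 2 CTX libraries and no MGE library. Sv2a and Sv2c did not pass, at 0.45 (SE 0.18, adjusted p = 0.0834) and -0.72 (SE 0.30, adjusted p = 0.0969).

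**Figure D3:**
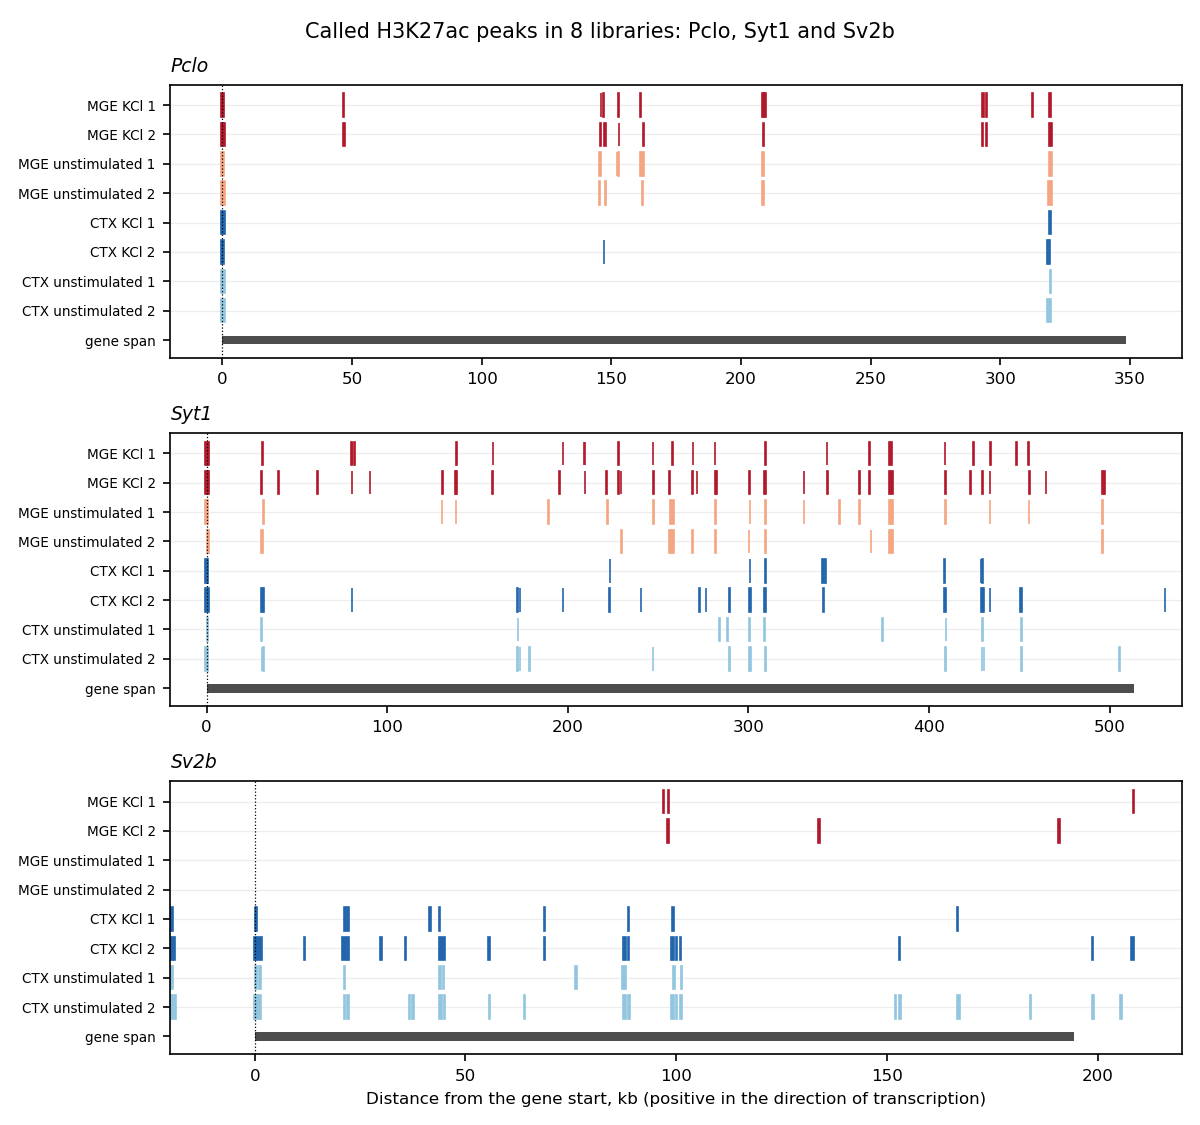
Called H3K27ac peaks (coloured bars) in the 8 libraries across Pclo, Syt1 and Sv2b, by distance from the gene start in kb, with the gene span in grey. Pclo has a start peak in all 8 libraries and further peaks inside the gene almost only in MGE libraries, and Sv2b has peaks at or next to its start in the 4 CTX libraries and none there in MGE libraries.

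Rab3b and Rab3c, for vesicle GTPases that bind RIM, were higher in MGE cultures, and Rab3a, the most abundant Rab3 of brain, was not called. Rab3b had 139 and 134 bp per Mb called with KCl and 172 and 147 unstimulated in MGE cultures, against 38.0 and 44.9 with KCl and 64.4 and 88.3 unstimulated in CTX cultures. No library of one culture reached the other, and the difference was 1.25 (SE 0.18, adjusted p = 0.000142). Rab3c had 528 and 581 bp per Mb called with KCl and 476 and 428 unstimulated in MGE cultures, against 409.6 and 405 with KCl and 344 and 317 unstimulated in CTX cultures. Its difference was 0.44 (SE 0.12, adjusted p = 0.0155) and turned to -0.04 without division by the Mb called. Rab3a had -0.05 (SE 0.19, adjusted p = 0.868). At Rab3b, peaks called in one culture lay inside the gene for MGE (chr4:108930173-108931451, the 4 MGE libraries alone) and past its end for CTX (chr4:108948743-108949922, the 4 CTX libraries alone). Within that CTX region, chr4:108948849-108949258 was called in both CTX unstimulated libraries and in neither CTX KCl library.

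No synapsin gene passed, and neither did Syp, for synaptophysin, the most abundant vesicle membrane protein. Syn1 had 0.44 (SE 0.23, adjusted p = 0.195), Syn2 -0.09 (SE 0.16, adjusted p = 0.733), Syn3 -0.34 (SE 0.18, adjusted p = 0.191) and Syp 0.29 (SE 0.20, adjusted p = 0.314). Each synapsin window also holds a metalloproteinase inhibitor gene (Timp1, Timp4 or Timp3) inside the synapsin gene. Summed over the 35 genes, coverage was 4772 ± 503 bp per Mb called in MGE libraries and 3890.3 ± 318 in CTX libraries (SD, n = 4 each), a ratio of 1.23 given without a test. The bases behind these sums were 116 and 153 kb in MGE KCl, 108 and 88.1 kb in MGE unstimulated, 117 and 179.7 kb in CTX KCl, and, for CTX unstimulated libraries, 80.5 and 172 kb, and without the division by the Mb called the log2 ratio was -0.24, against 0.29 with it.

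The count of genes higher in MGE cultures depended on that division. Without it 1 release gene (Pclo) was higher and 3 (Sv2b, Syt9 and Cplx3) lower, while the median of all genes moved to -0.30 and that of the release genes to -0.11. All genes then split into 299 higher and 1800 lower, against 1674 higher and 2007 lower with it. With each list trimmed to the same called length, 8 were higher and 3 lower, with a median of 0.34 over the release genes and -0.13 over all genes. These were not all the same genes: Cplx3, Rab3c, Rims2 and Stx1a lost their calls, and Cplx2 and Unc13b gained one. Leaving out single libraries ended the call of Cplx3 without CTX KCl 1 (adjusted p = 0.0763), CTX KCl 2 (0.0859) or CTX unstimulated 1 (0.0574), of Rims4 without CTX KCl 1 (0.0611) or CTX unstimulated 1 (0.0525), of Rab3c without CTX KCl 2 (0.0592) or MGE unstimulated 1 (0.0664), of Stx1a without CTX KCl 2 (0.0709) or MGE KCl 1 (0.0502), and of Rims2 without CTX KCl 2 (0.192), CTX unstimulated 2 (0.161) or any 1 of the 4 MGE libraries (0.106, 0.0871, 0.091 and 0.116). A fit without 1 library assumes that the lone library left in its group varies like the others. The calls of Sv2b, Pclo, Syt1, Rab3b, Rims1, Erc1, Snap25 and Syt9 held in all 8 such fits.

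After 2 h of KCl, 3 of 33 were higher in MGE cultures (Sv2b, Sv2c and Rims1) and none lower, where the fit called 2.52% of all genes (1.79% higher and 0.727% lower). In CTX cultures limma called none of the 33, against 0.238% of all genes (0.135% higher and 0.103% lower); 7 of the 33 had an unadjusted p under 0.05, against 11.2% of all genes. Over both cultures together, as the mean of the 2 within-culture differences, Sv2c, Sv2b and Rims1 were called higher and Snap25 lower. The fit called 4.83% of all genes there (3.31% higher and 1.51% lower). For Sv2b that mean joins opposite signs, 2.40 in MGE and -0.34 in CTX cultures. In the same fit, of 8 immediate early genes, which neurons switch on soon after activity, 7 (Atf3, Fos, Arc, Nr4a1, Npas4, Nr4a2 and Fosb) were called higher over both cultures. Their summed coverage was 1050 to 1154 bp per Mb called in MGE KCl libraries against 325 to 409 in MGE unstimulated ones, and 907 to 1082 in CTX KCl libraries against 467 to 528 in CTX unstimulated ones.

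Sv2c was higher with KCl in MGE cultures and over both cultures together. It had 44.4 and 50.1 bp per Mb called in MGE KCl libraries, against 17.1 and 0 in MGE unstimulated libraries, a difference of 1.80 (SE 0.42, adjusted p = 0.035). In CTX cultures it had 70.3 and 61.4 bp per Mb called in CTX KCl libraries, against 22.2 and 25.4 in CTX unstimulated libraries, a difference of 1.17 (SE 0.42, adjusted p = 0.272) that did not pass alone. Over both cultures the difference was 1.48 (SE 0.30, adjusted p = 0.0127), and KCl libraries did not overlap unstimulated ones in either culture. The MGE call was kept in 7 of 21 other settings and was lost without MGE KCl 1 (0.127), MGE KCl 2 (0.116), MGE unstimulated 2 (0.255), CTX KCl 1 (0.125), CTX KCl 2 (0.124) or CTX unstimulated 1 (0.0574), adjusted p in brackets; the call over both cultures was kept in 14 of 21 and was lost without CTX KCl 1 (0.141), CTX KCl 2 (0.0976) or CTX unstimulated 1 (0.0668). The start base (position 96132577 of chromosome 13) lay in no peak of any library, and peaks began just inside the gene. The 2 kb centred on it held 519 and 810.0 called bp in MGE KCl libraries, 718 and 666 in CTX KCl libraries and none in any of the 4 unstimulated libraries, a start-window difference over both cultures of 1.68 (SE 0.46, adjusted p = 0.00899). Genes called higher in that window were 5.01% of 8700 over both cultures and 3.74% in MGE cultures, where no release gene was called.

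The Sv2c start peaks ran over chr13:96131979-96132497 and chr13:96131958-96132517 in MGE KCl 1 and 2, with deposited fold enrichments of 2.99 and 2.64. In CTX KCl 1 a peak ran over chr13:96131533-96132294 (fold 2.71, -log10 q 2.79), and in CTX KCl 2 one over chr13:96132041-96132494 (fold 3.16, -log10 q 5.77). A second region, 1.23 to 1.91 kb downstream of the start, was called in both MGE KCl libraries, in neither MGE unstimulated library and in all 4 CTX libraries. These are the authors' values for each peak, and all but 1 of the start peaks had a -log10 q under 5.

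Sv2b also differed with KCl, and in MGE cultures its window had been empty. It had 47.7 and 38.5 bp per Mb called in MGE KCl libraries, against 0 and 0 in MGE unstimulated libraries, a difference of 2.40 (SE 0.30, adjusted p = 0.00156). The unstimulated libraries are listed at 0, so no fold can be given and the size depends on the 10 bp added. In CTX cultures it had 144 and 237 bp per Mb called in CTX KCl libraries, against 208 and 269.7 in CTX unstimulated libraries, a difference of -0.34 (SE 0.30, adjusted p = 0.824). One region was shared by both MGE KCl libraries, chr7:75210855-75211339 inside the gene, with deposited fold enrichments of 2.99 and 2.91 and -log10 q values of 3.65 and 4.86. No MGE peak lay at a start. Because the cultures had opposite signs, the value over both is a mean of 2.40 and -0.34 and does not describe CTX cultures. Over both cultures the difference was 1.03 (SE 0.21, adjusted p = 0.0145), kept in 11 of 21 other settings and lost without MGE KCl 1 (0.0502), CTX KCl 1 (0.0711), CTX KCl 2 (0.108) or CTX unstimulated 1 (0.0859). The KCl difference was larger in MGE than in CTX cultures by 2.74 (SE 0.42, adjusted p = 0.0431), the only release gene called among 33 in this comparison, where 0.0386% of all genes were called; no start window of a release gene was called in it, against 0.0115% of 8700. That call was lost when any of 5 single libraries was left out: adjusted p was 0.127 without MGE KCl 1, 0.694 and 0.155 without CTX KCl 1 or 2, and 0.186 and 0.0988 without CTX unstimulated 1 or 2.

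Rims1 was the third gene higher with KCl. It had 339 and 306 bp per Mb called in MGE KCl libraries, against 160.2 and 151 in MGE unstimulated libraries, a difference of 1.01 (SE 0.24, adjusted p = 0.0395). In CTX cultures it had 129 and 113 bp per Mb called in CTX KCl libraries, against 110.3 and 68.3 in CTX unstimulated libraries, a difference of 0.43 (SE 0.24, adjusted p = 0.565), and over both cultures it was 0.72 (SE 0.17, adjusted p = 0.0276). The MGE call was kept in 6 of 21 other settings and was lost without MGE KCl 1 (0.2), MGE KCl 2 (0.0929), MGE unstimulated 1 (0.0988), MGE unstimulated 2 (0.189), CTX KCl 1 (0.0998) or CTX KCl 2 (0.0972), adjusted p in brackets; the call over both cultures was kept in 8 of 21 and was lost without MGE KCl 1 (0.0881), MGE KCl 2 (0.0516), MGE unstimulated 2 (0.0795), CTX KCl 1 (0.167), CTX KCl 2 (0.101) or CTX unstimulated 2 (0.0649). KCl libraries lay above unstimulated ones in both cultures. The start gave no call: its 2 kb were filled to 80.0% in MGE KCl and 71.3% in MGE unstimulated libraries, and to 74.0% in CTX KCl and 65.9% in CTX unstimulated libraries, with a start-window difference over both cultures of -0.03 (SE 0.23, adjusted p = 0.997). Stretches called in both MGE KCl and no MGE unstimulated library lay inside the gene at chr1:22711622-22712135, 94.0 kb from the start, and at chr1:22616418-22616729, 189 kb from it.

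**Figure D4:**
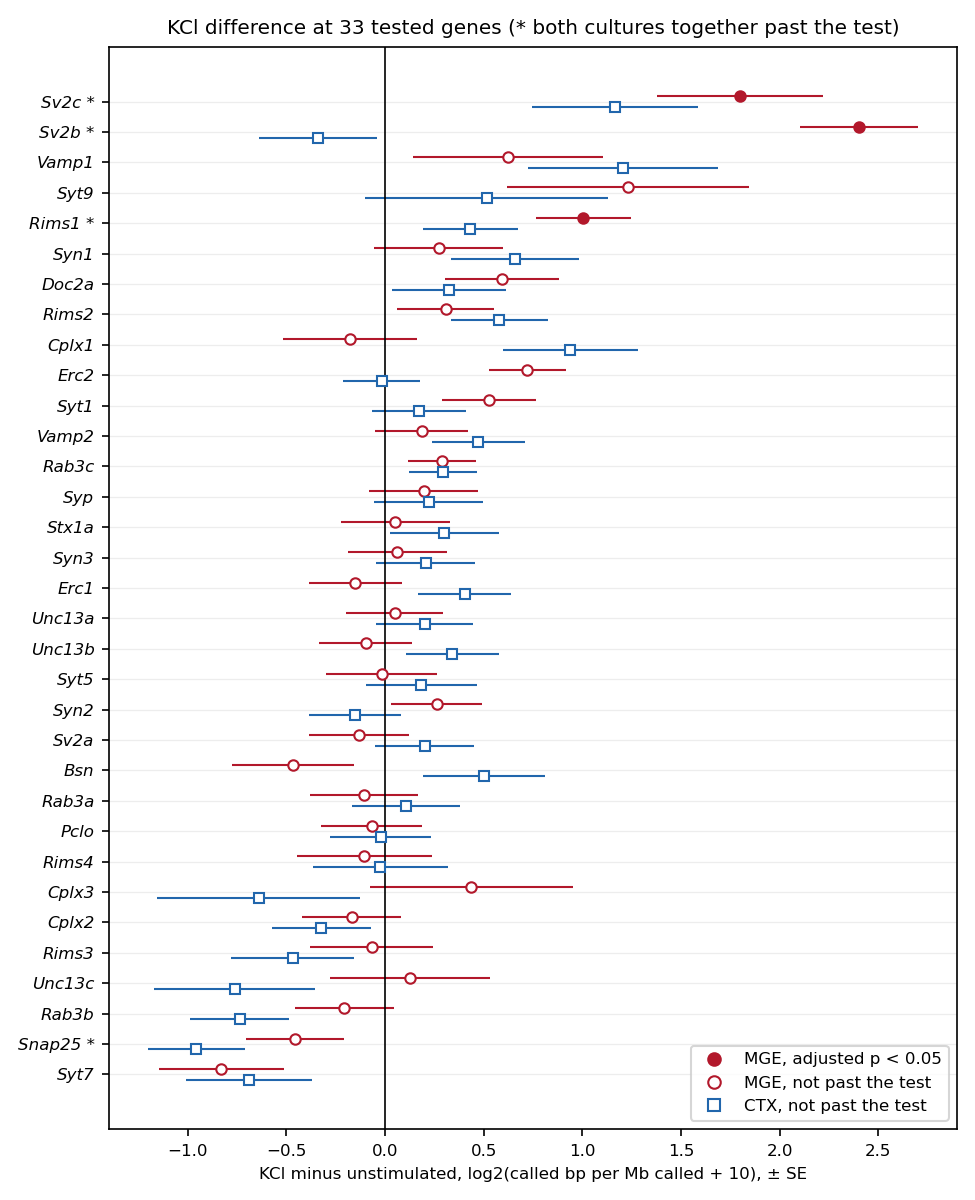
KCl difference (x axis, KCl minus unstimulated on log2(bp per Mb called + 10), with bars of 1 SE) at the 33 tested genes, red circles for MGE and blue squares for CTX cultures, filled where the adjusted p was under 0.05, with a star where both cultures together passed. Sv2b (2.40), Sv2c (1.80) and Rims1 (1.01) are the filled MGE points, no CTX point is filled, and Snap25 and Syt7 are among the genes to the left of 0 in both cultures.

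Snap25 was the one release gene lower with KCl over both cultures. It had 134 and 95.0 bp per Mb called in MGE KCl libraries, against 169.7 and 148 in MGE unstimulated libraries, and 48.3 and 46.5 bp per Mb called in CTX KCl libraries, against 104 and 98.9 in CTX unstimulated libraries. KCl libraries lay below unstimulated ones in each culture, and the difference over both was -0.71 (SE 0.18, adjusted p = 0.0343), with -0.46 in MGE and -0.95 in CTX cultures. The call was kept in 6 of 20 other settings and was lost without MGE KCl 2 (0.112), MGE unstimulated 1 (0.101), MGE unstimulated 2 (0.0732), CTX KCl 1 (0.141), CTX KCl 2 (0.115), CTX unstimulated 1 (0.108) or CTX unstimulated 2 (0.0534), adjusted p in brackets. Syt7, the slow calcium sensor, had 45.0 and 51.2 bp per Mb called in MGE KCl libraries, against 102 and 84.2 in MGE unstimulated libraries, and 35.3 and 45.4 bp per Mb called in CTX KCl libraries, against 48.9 and 100.3 in CTX unstimulated libraries. Its KCl libraries also lay below the unstimulated ones in each culture, but its difference of -0.76 (SE 0.23, adjusted p = 0.0676) did not pass. In all, KCl libraries lay above unstimulated ones in both cultures at 5 of 33 genes (Rims1, Sv2c, Rab3c, Rims2 and Vamp1; background 9.83%) and below them at 3 (Syt7, Snap25 and Rab3b; background 4.89%).

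Other genes had sizeable KCl differences that did not pass. Vamp1, for a second synaptobrevin, had 39.2 and 23.8 bp per Mb called in CTX KCl libraries, against 0 and 21.3 in CTX unstimulated libraries , a difference of 1.21 (SE 0.48, adjusted p = 0.335). It also had 37.3 and 32.9 bp per Mb called in MGE KCl libraries, against 22.6 and 16.2 in MGE unstimulated libraries, a difference of 0.62 (SE 0.48, adjusted p = 0.648). In the fit of the 2 kb at its start it did pass. There 1115 and 1066 called bp in CTX KCl, against 0 and 607 in CTX unstimulated libraries, gave 1.39 (SE 0.37, adjusted p = 0.0356). With 801 and 1054 bp in MGE KCl against 521 and 341 in MGE unstimulated libraries, the difference over both cultures was 1.01 (SE 0.26, adjusted p = 0.0058). The whole window held nearly the same bases: 1.115 and 1.066 kb in CTX KCl, 0 and 0.913 kb in CTX unstimulated, and no more in MGE libraries. In MGE cultures both fits gave 0.62, with an SE of 0.48 for the whole window and 0.37 at the start. The start fit takes its spread almost wholly from all genes tested. Start windows were called higher with KCl in CTX cultures at 0.713% of 8700 genes. Stx1a was also called higher there over both cultures, by 0.83 (SE 0.27, adjusted p = 0.0488), while its whole window gave 0.18 (SE 0.20, adjusted p = 0.719). Its start window held 1149 and 771 called bp in CTX KCl against 245 and 885 in CTX unstimulated libraries, which overlap. In MGE cultures it held 613 and 1000 bp with KCl against 580 and 0 unstimulated. Neither culture passed alone. Over both cultures 5.01% of 8700 start windows were called higher.

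Cplx1 had 50.8 and 47.8 bp per Mb called in CTX KCl libraries, against 14.6 and 28.9 in CTX unstimulated libraries, a difference of 0.94 (SE 0.34, adjusted p = 0.272), and 71.4 and 39.8 bp per Mb called in MGE KCl libraries, against 69.6 and 55.1 in MGE unstimulated libraries, a difference of -0.18. Unc13c, for the Munc13 best known from cerebellum, had 17.2 and 41.7 bp per Mb called in CTX KCl libraries, against 46.2 and 61.8 in CTX unstimulated libraries, a difference of -0.76 (SE 0.41, adjusted p = 0.538). It also had 40.0 and 18.4 bp per Mb called in MGE KCl libraries, against 31.9 and 18.5 in MGE unstimulated libraries, a difference of 0.13. Neither passed in either culture. Erc2 had 403 and 343 bp per Mb called in MGE KCl libraries, against 229 and 215 in MGE unstimulated libraries, a difference of 0.72 (SE 0.20, adjusted p = 0.0656). It also had 299 and 321 bp per Mb called in CTX KCl libraries, against 275 and 357 in CTX unstimulated libraries, a difference of -0.02. Its MGE KCl libraries lay above the MGE unstimulated ones, and the CTX libraries overlapped. In MGE cultures 9 of 33 genes had KCl libraries above (background 22.9%) and 3 below (20.3%), and in CTX cultures 13 above (23.4%) and 6 below (12.9%).

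Rab3c, the gene with the most coverage, had stretches of at least 300 bp that every KCl library called and every unstimulated one lacked. It was the one release gene of 35 with any, near the share of 2.44% over all protein-coding genes. Its window is 267 kb long, against a median of 57.3 kb over all protein-coding genes. Rab3c had 2 such stretches, both inside the gene: chr13:110218884-110219499, 60.7 kb from the start, and chr13:110140315-110140865, 139 kb from it. At the nearer one the peaks had deposited fold enrichments of 3.56 and 2.64 in MGE KCl libraries and of 2.97 and 4.05 in CTX KCl libraries. Beside the farther one, both CTX unstimulated libraries had a peak that ended at or before its edge. Coverage of the whole window gave KCl differences of 0.29 (SE 0.17, adjusted p = 0.482) in MGE and 0.29 (SE 0.17, adjusted p = 0.593) in CTX cultures.

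**Figure D5:**
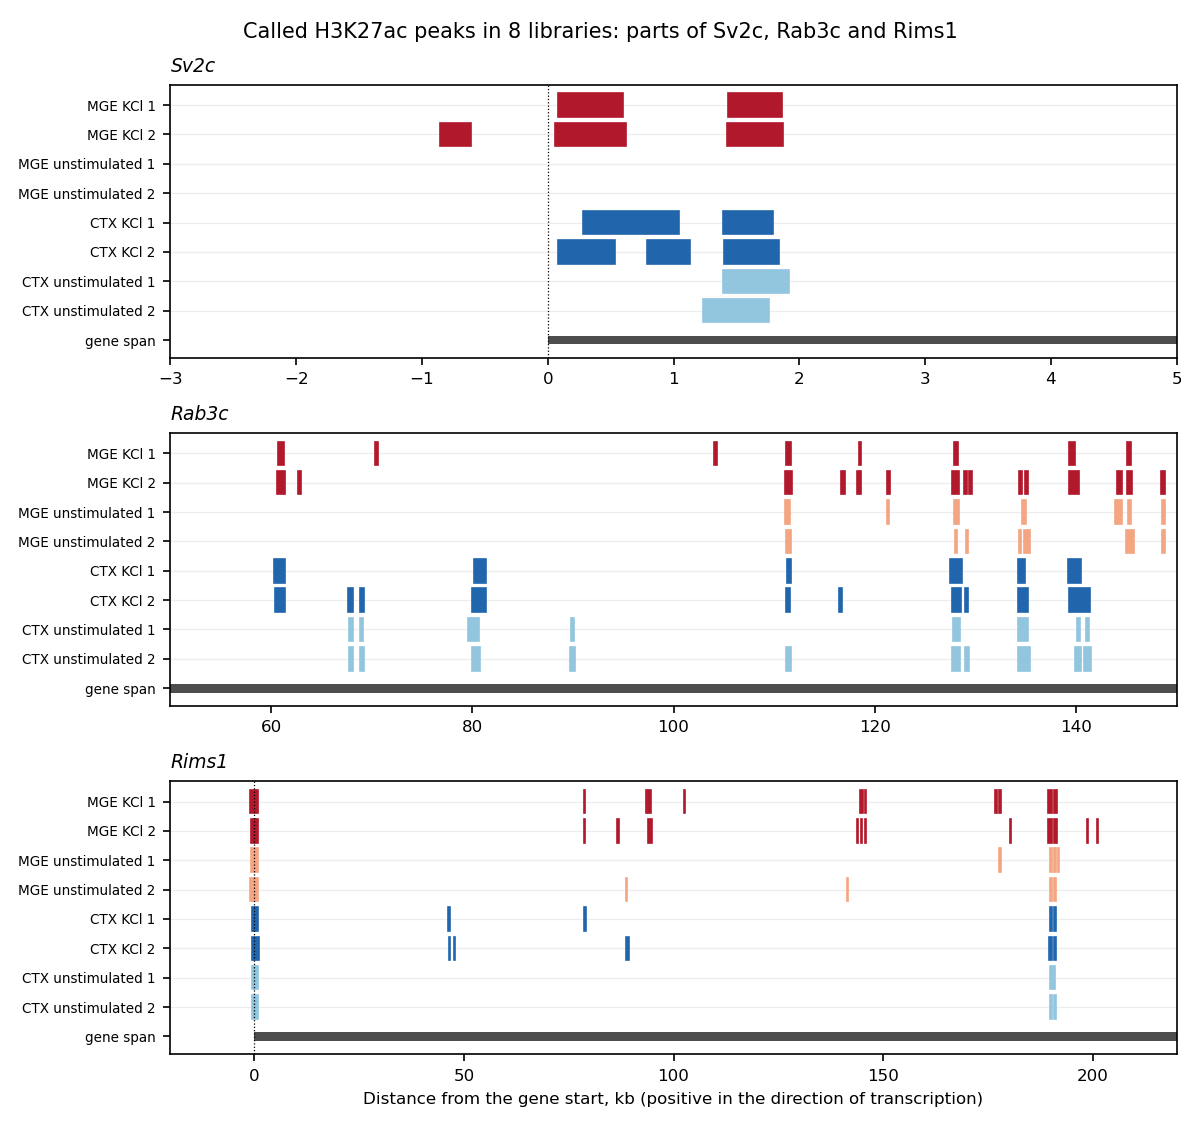
Called H3K27ac peaks (coloured bars) in the 8 libraries at the start of Sv2c, in a stretch of Rab3c and across part of Rims1, by distance from the gene start in kb, with the gene span in grey. Just inside the start of Sv2c, peaks are called in the 4 KCl libraries and in no unstimulated one, and the Rab3c peak 60.7 kb from the start is likewise called in the 4 KCl libraries alone.

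Counted by gene within each culture, stretches called in both KCl and neither unstimulated library were found at 15 release genes in MGE cultures and 17 in CTX cultures, where 15.6% and 16.2% of all protein-coding genes had one. The reverse was found at 4 in MGE and 8 in CTX cultures (5.44% and 7.78% of all genes). Stretches called in the 4 MGE libraries but not in CTX lay at 5 of the 35 (Erc1, Erc2, Rab3b, Rab3c and Syt1; 4.5% of all genes), and those called in the 4 CTX libraries but not in MGE at 7 (Syn3, Bsn, Erc1, Erc2, Cplx2, Rab3c and Sv2b; 8.83%). Every base of such a stretch, at least 300 bp long, is called in all libraries of the one group and in none of the other. Peak regions merged over the lists, as at Pclo, at Snap25 and past the end of Rab3b above, need no such shared bases and were not counted here. Windows of release genes are longer than those of other genes, so these counts of stretches say nothing of the list by themselves.

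In MGE cultures the count of 3 was 1 without CTX KCl 1, CTX KCl 2, MGE KCl 2 or MGE unstimulated 2; over both cultures the count of 4 was 0 without CTX KCl 1 or 2, and 2 without CTX unstimulated 1, MGE KCl 2 or MGE unstimulated 2; in CTX cultures the count of 0 was 1 without CTX unstimulated 2. Summed over the 35 genes, coverage was 5100.1 ± 442 bp per Mb called in MGE KCl libraries against 4444 ± 365 in MGE unstimulated ones, and 4069 ± 72.4 in CTX KCl libraries against 3712 ± 412 in CTX unstimulated ones (SD, n = 2 each), ratios of 1.15 and 1.10.

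A further 44 genes of the same pathway, from fusion factors to endocytic proteins, were described for comparison, and 42 passed the filter (Cplx4 was at 0 in all 8 libraries, and Syt12 in all 4 MGE libraries). In the culture comparison 5 were higher in MGE cultures and 7 lower, near the 10.8% and 12.9% of all genes, with a median of 0.11. Cadps2, for a factor of dense-core vesicle release, was higher in MGE cultures by 3.31 (SE 0.30, adjusted p = 4e-06), and Rph3a, a Rab3 effector, by 1.44 (SE 0.43, adjusted p = 0.0231); Rimbp2, Dnm1 and Sncb were higher too. Lower were Synpr, for the synaptophysin relative synaptoporin, at -2.58 (SE 0.26, adjusted p = 9e-06), Syt10, at -2.47 (SE 0.31, adjusted p = 4.8e-05) and Syt6, at -2.08 (SE 0.21, adjusted p = 1.1e-05), and also, among others, Ppfia2, Rab3gap2 and Sh3gl2. With KCl, Ppfia2, for the active zone protein liprin-alpha-2, was higher in MGE cultures, by 0.91 (SE 0.21, adjusted p = 0.03), and in CTX cultures, by 1.67 (SE 0.21, adjusted p = 0.00631). Synpr was higher with KCl in MGE cultures, by 2.51 (SE 0.37, adjusted p = 0.00436). Over both cultures Ppfia2, Synpr, Amph and Rab27b were higher with KCl and Syt17 lower.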

How the data were processed

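H3K27ac was profiled by ChIP-seq in 8 libraries, 2 in each of 4 groups. The submitters' processing notes name cutadapt 1.18, Bowtie2 2.3.3, MACS3 3.0.0a7, deepTools 3.4.3 and the mm10 build. What each tool did, its settings, any input and duplicate handling are not stated by those notes or the labels. The authors deposited 1 broad-peak list per library, with a fold enrichment, a -log10 p, a -log10 q and a score for each peak. The lowest deposited -log10 q was 1.30 to 1.35 by library, and the deposited score, which is 10 times the -log10 q, was not used. Read depth is unknown, so no counting error can be given, and peaks near the threshold can be called in one library and missed in another of the same group.

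Called bases on chromosomes 1 to 19 and X were counted in each protein-coding gene's RefSeq span with 20 kb on each side and divided by the Mb called in that library; 29 peaks on other chromosomes were left out. log2(bp per Mb called + 10) was fitted with limma 3.58.1 (R 4.3.3), with a trend on the mean and 4 groups, over genes with a mean of at least 10 bp per Mb called, and p-values were adjusted by Benjamini-Hochberg over all genes tested. All p-values here come from limma. Start windows of 2 kb were fitted the same way, summed over all listed starts of a gene with overlaps counted once. The weight limma gave to the spread shared by all genes was 45680 degrees of freedom there, against 10.78 in the main fit. A gene's own spread between libraries thus hardly entered its start-window SE and p-value. Counting used Python 3.11.15, numpy 2.4.6 and pandas 2.3.3, and figures matplotlib 3.10.9.

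All 35 genes are named. A result for 1 gene of the comparison list is not reported here. Values in every library are given for genes called in a comparison, for up to 5 non-overlapping genes with the largest differences per comparison and for the 3 highest means. The members, gene lists and tests were chosen with earlier results of these data known. Stretches of at least 300 bp were defined after the peak lists had been seen. Other windows, peak thresholds, scalings, pseudocounts, filters, a replicate block and leaving out each library were tried.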

Additional observations from a re-analysis of the deposited data

Results flagged for a closer look

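The KCl difference of Sv2b was larger in MGE than in CTX cultures by 2.74 on the log2(bp per Mb called + 10) scale (limma, adjusted p = 0.0431), which is a test of the difference between the cultures itself. In MGE cultures the difference was 2.40, with both unstimulated libraries listed at 0, and in CTX cultures it was -0.34. The call was lost in 16 of 21 other settings, and the value ranged from 0.05 to 5.81 over them.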

How the results depend on the processing

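Of 21 differences of single genes past the threshold, that of Sv2b between MGE and CTX cultures was the one that kept its call in all 21 other settings. Release genes called between MGE and CTX cultures were 13, and became 3 with only peaks of -log10 q of at least 5, 4 without library scaling and 3 in start windows. The start-window calls were Sv2b, Syt9 and Cplx1, and Cplx1 is not among the 13. Of the 13, Rims2, Rims4 and Snap25 have no listed start and Cplx3 was under the filter there, so these could not be called in start windows. With KCl in MGE cultures the 3 calls became 0 with -log10 q of at least 5, with equal called bases, without library scaling and in start windows, and 1 with a pseudocount of 1, without the low-value filter or without the mean trend. With KCl over both cultures the 4 calls became 0 with -log10 q of at least 5 or without library scaling, 1 with a pseudocount of 1 and 2 without the mean trend; with equal called bases there were also 4, but of other genes (Doc2a, Rims2, Vamp1 and Vamp2), and with a flank of 50 kb Sv2c was called with Syn1 and Vamp2. In CTX cultures the 0 calls became 1 (Vamp1) with equal called bases and in start windows. The 1 call for the difference of the responses became 0 with flanks of 0 or 50 kb, -log10 q of at least 5, equal called bases, no library scaling, start windows, other genes left out (chosen after seeing the data), a pseudocount of 50, no low-value filter and no mean trend. Leaving out 1 library gave 10 to 14 calls between cultures, 1 to 3 with KCl in MGE cultures, 0 to 3 over both cultures, 0 to 1 in CTX cultures and 0 to 1 for the difference. The summed log2 ratio of MGE to CTX cultures, 0.29, became 0.44 with no flank, 0.45 with -log10 q of at least 5 and -0.24 without library scaling; that of KCl in MGE cultures, 0.20, became 0.014 with -log10 q of at least 5 and 0.46 without library scaling. Without 1 library it ranged from 0.23 to 0.35 between cultures, 0.11 to 0.29 in MGE cultures and 0.024 to 0.25 in CTX cultures (0.25 without CTX unstimulated 2). Signs turned for Rims1 with KCl in start windows (-0.070 in MGE cultures, -0.031 over both), Sv2b with KCl over both cultures (-0.53 with -log10 q of at least 5, -0.025 in start windows), Rab3c between cultures without library scaling (-0.039) and Stx1a between cultures in start windows (-0.15). The cause was not tested. Cplx3 could not be fitted with no flank, in start windows or with other genes left out, where it was under the filter.

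The deviations of libraries with the same replicate number had r of 0.319, 0.251 and 0.226 among CTX KCl, CTX unstimulated and MGE KCl, and of 0.03, -0.016 and -0.121 between MGE unstimulated and those groups (15537 genes). Not every pair was over 0.1 and the labels state no shared source, so the numbers were not taken to pair the samples, though a shared deviation in 3 groups is a hint from the data. With the number as a replicate block, 14 release genes were called between cultures, 3 with KCl in MGE cultures, 4 over both, 0 in CTX cultures and 0 for the difference of the responses (Sv2b, adjusted p = 0.0538).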
